A study of Mus musculus with 12 samples.

Results

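Genes of 9 potassium channel subunits that carry the main repolarising currents of the heart were followed in ventricles of mice with and without a cardiac knockout of Vps13c. They were found by matching their symbols to the Ensembl IDs of the deposited read count table, and all 9 were present among its 21959 gene IDs. All 9 also passed the filter on low counts, which left 12384 genes for testing, and each had at least 202 reads in every mouse. The comparison was between 6 mice with a cardiac-specific knockout of Vps13c (Vps13c-cKO) and 6 wild-type mice (WT), all male, 7 weeks old and fed chow. Vps13c encodes a bridge-like protein that moves lipids between organelle membranes. The driver that confined the knockout to the heart, and whether the WT mice carried it, are not stated by the labels.

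Potassium channels let potassium leave the heart muscle cell, which ends each action potential and holds the cell at rest between beats. The strong inward rectifier Kir2 (Kcnj2, Kcnj12) carries the resting current IK1. The GIRK subunits Kcnj3 and Kcnj5 form the channel that acetylcholine opens through the M2 receptor, a current known best from atria and nodal cells. Kcnj11 is the pore of the KATP channel, which opens when ATP runs low. Kcnd2 and Kcnd3 are the Kv4 pores of the transient outward current of early repolarisation, and Kcnip2 (KChIP2) is the calcium-binding subunit that brings them to the surface. Kcna5 (Kv1.5) carries a delayed rectifier that is prominent in mouse ventricle.

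Libraries held 12484523 to 15562942 gene counts, and values are given as CPM, which is read counts scaled to a common library size with TMM normalisation factors. Vps13c measured 16.3 to 20.3 CPM in Vps13c-cKO ventricles and 54.6 to 68.6 CPM in WT ventricles; the groups did not overlap, in the direction of the labels. All 10 cardiomyocyte markers examined were present. Their summed level ranged over 58020 to 62470 CPM in Vps13c-cKO and 60100 to 64750 CPM in WT, with 1 of 10 higher (Mybpc3) and 3 lower (Tnnt2, Tnni3, Myl2) by the test used for the channels. Fibroblast markers were higher for 5 of 8 and macrophage markers for 4 of 8, the fibroblast list with summed levels of 1053 to 1143 CPM in Vps13c-cKO and 908 to 1015 CPM in WT. In such bulk samples fewer cells of a type and less RNA per cell cannot be told apart, and the part of cell composition in the channel results was not tested. Of 8 endothelial markers 1 was lower (Cldn5), and 6 had an unadjusted p under 0.05 by edgeR, in both directions. Of 6 tested atrial markers 2 were higher (Nppa, Pam), and 5 had an unadjusted p under 0.05. Of 6 tested conduction system markers and 3 tested Schwann cell or neuron markers 0 were called by edgeR or DESeq2. Among those 9, 1 had an unadjusted p under 0.05. Of 4 tested skeletal muscle markers 3 were higher (Tnnt3, Tnni2, Mylpf), and Tnnc2 was at 0 in every mouse. The conduction system list summed to 38.6 to 56.0 CPM in Vps13c-cKO and 41.2 to 56.5 CPM in WT, with Isl1 at 0, and 0 of 6 adipocyte markers passed the filter.

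An atrial signal was seen in 1 WT library. WT mouse 4 had 8.24 CPM of Sln, 29.3 CPM of Myl7 and 31.3 CPM of Myl4, whereas the other 11 mice reached at most 0.0706, 0.353 and 2.19 CPM.

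Of the 9 subunits, 4 were lower and 0 higher in Vps13c-cKO ventricles at an adjusted p under 0.05 (edgeR quasi-likelihood test, Benjamini-Hochberg over all 12384 genes). These were Kcnj3, Kcnj2, Kcnd2 and Kcnj11, 1 pore subunit in each of 4 currents. Among all tested genes 10.7% were called, 5.10% lower and 5.65% higher, and among the 7914 genes with a mean of 10 CPM or more, a level that all 9 subunits exceed, 7.04% were called lower. The groups did not overlap in any mouse for Kcnj3 and Kcnd2, a pattern that 2.18% of all tested genes showed in the lower direction and 2.75% in the higher one. The median log2 fold change of the 9 was -0.20, against 0.00 for all tested genes. As the 9 were chosen with earlier results of these data known, their values beside all tested genes are a description. The subunits that pair with them, Kcnj5, Kcnj12, Kcnd3 and Kcnip2, and the delayed rectifier gene Kcna5, did not pass the threshold. At an unadjusted p under 0.05 the only one of these 5 was Kcnd3, and DESeq2 made 1 call in each of the same 4 currents.

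**Figure D1:**
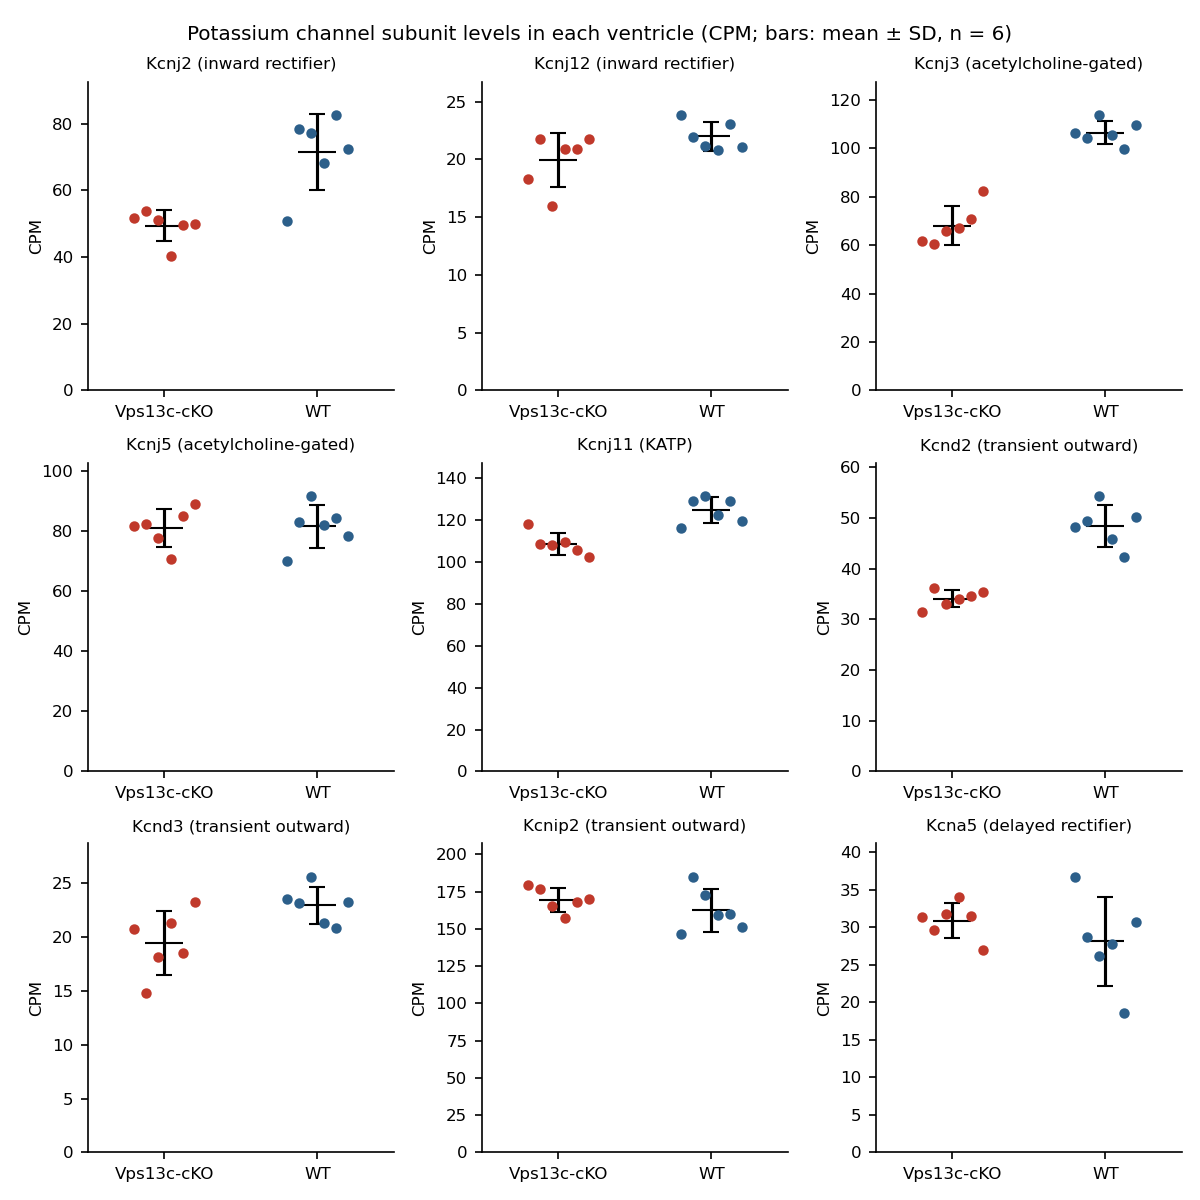
Level of each subunit gene in CPM (y axis, from 0) in 6 Vps13c-cKO (red, left) and 6 WT (blue, right) ventricles, 1 point per mouse, with mean ± SD as bars. Every Vps13c-cKO point lies below every WT point for Kcnj3 and Kcnd2, while the ranges of the groups overlap in most mice for Kcnj5 and Kcnip2.

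Promoter sequences from RefSeq were available for 8 of the 9 genes, all but Kcnj11. They are shown for the 3 genes that fell most and for the partners Kcnj5 and Kcnip2, because partners of 1 channel differed in their response. Each window runs from 250 bases before to 50 bases after the annotated start, on build GRCm38.p6, 5′ to 3′ on the gene's strand. Capitals mark the GC box GGGCGG and the E-box CACGTG, searched on both strands. The windows are Kcnj3 at chr2:55435720-55436019, plus strand, Kcnj5 at chr9:32344295-32344594, minus strand, Kcnj2 at chr11:111065914-111066213, plus strand, Kcnd2 at chr6:21215096-21215395, plus strand, and Kcnip2 at chr19:45816014-45816313, minus strand.
Kcnj3: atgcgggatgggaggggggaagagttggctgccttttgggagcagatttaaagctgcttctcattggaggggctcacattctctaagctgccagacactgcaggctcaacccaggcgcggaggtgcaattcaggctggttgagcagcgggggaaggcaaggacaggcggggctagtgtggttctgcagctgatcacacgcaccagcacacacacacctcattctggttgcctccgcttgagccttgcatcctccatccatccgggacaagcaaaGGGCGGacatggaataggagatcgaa
Kcnj5: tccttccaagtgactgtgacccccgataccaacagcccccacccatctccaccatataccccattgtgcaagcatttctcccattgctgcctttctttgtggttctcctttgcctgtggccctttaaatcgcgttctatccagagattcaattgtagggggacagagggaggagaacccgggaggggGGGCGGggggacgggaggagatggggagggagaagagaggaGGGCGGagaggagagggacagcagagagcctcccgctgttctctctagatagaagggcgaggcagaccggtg
Kcnj2: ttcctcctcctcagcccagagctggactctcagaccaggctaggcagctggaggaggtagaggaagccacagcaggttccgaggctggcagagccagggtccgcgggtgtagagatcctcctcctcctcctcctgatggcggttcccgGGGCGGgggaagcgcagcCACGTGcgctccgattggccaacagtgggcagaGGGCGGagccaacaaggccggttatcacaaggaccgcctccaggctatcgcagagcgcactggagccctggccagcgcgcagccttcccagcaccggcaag
Kcnd2: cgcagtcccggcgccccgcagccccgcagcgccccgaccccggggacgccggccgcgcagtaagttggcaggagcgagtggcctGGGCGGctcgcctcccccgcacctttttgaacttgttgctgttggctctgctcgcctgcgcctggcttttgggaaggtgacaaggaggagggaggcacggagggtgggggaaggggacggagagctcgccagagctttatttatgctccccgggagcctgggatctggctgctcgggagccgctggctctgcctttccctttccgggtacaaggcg
Kcnip2: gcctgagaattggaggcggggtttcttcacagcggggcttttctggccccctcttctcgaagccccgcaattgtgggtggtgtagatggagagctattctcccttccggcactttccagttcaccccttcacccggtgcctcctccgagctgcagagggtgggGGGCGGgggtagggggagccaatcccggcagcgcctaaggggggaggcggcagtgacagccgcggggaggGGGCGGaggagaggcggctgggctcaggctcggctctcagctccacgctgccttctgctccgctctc
GGGCGG was found in 5 of the 8 windows, which are the 5 shown, against 35.7% of all 32851 windows in the table. These were the windows of Kcnj3, Kcnj2 and Kcnd2, which fell, and of Kcnj5 and Kcnip2, which did not pass the threshold. It was found in 0 of the other 3 windows, those of Kcnj12, Kcnd3 and Kcna5, which did not pass either. CACGTG was found once, in Kcnj2, against 7.15% of all windows. The GC content was 57.7% for Kcnj3, 58.3% for Kcnj5, 66.7% for Kcnj2, 68.7% for Kcnd2 and 67.0% for Kcnip2, where the median of all windows was 52.7%. In the windows not shown it was 57.0% for Kcnj12, 64.0% for Kcnd3 and 55.0% for Kcna5. The sequence TATAAA was found in 0 of the 8 windows, against 13.6% of all windows. These matches describe the letters and do not show binding.

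The acetylcholine-gated channel showed the steepest fall of the 9, and in 1 of its 2 subunits. Kcnj3 (GIRK1; ENSMUSG00000026824, chromosome 2) had a lowest, median and highest value of 60.6, 66.5 and 82.4 CPM in Vps13c-cKO, against 99.6, 106 and 114 CPM in WT. All 6 knockouts lay below all 6 WT mice. The mean was 68.1 ± 7.95 CPM in Vps13c-cKO and 107 ± 4.85 CPM in WT (SD, n = 6 each), or 63.9% of the WT mean, and the log2 difference was -0.64 ± 0.06 (SE), with an adjusted p of 2.54e-07 from edgeR. Without WT mouse 4, the library with atrial transcripts, the log2 fold change of Kcnj3 was -0.65. Exons of Kcnj3 overlap the long non-coding RNA Gm26794 on the opposite strand over 1621 of 5215 bases, and as strand use in counting is not given, reads of the lincRNA and of Kcnj3 cannot be told apart there.

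Kcnj5 (GIRK4; ENSMUSG00000032034, chromosome 9), which GIRK1 needs to reach the cell surface, spanned 70.8 to 89.1 CPM with a median of 82.1 CPM in Vps13c-cKO, and 70.1 to 91.9 CPM with a median of 82.6 CPM in WT. The 2 ranges nearly coincide. Its log2 fold change was -0.01 ± 0.06 (SE, adjusted p = 0.956). The read ratio of Kcnj3 to Kcnj5 within a mouse, which needs no library scaling, was 0.736 to 0.950 in Vps13c-cKO with a median of 0.840, and 1.18 to 1.52 in WT with a median of 1.27. No knockout ratio reached a WT ratio. The mean log2 ratio differed by -0.64 ± 0.08 (SE; two-sided exact permutation p = 0.00216, the smallest that 6 against 6 can give, adjusted p = 0.00649 over 6 ratios).

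Upstream of this channel, the M2 receptor gene Chrm2 also fell. It spanned 158 to 186 CPM (median 166) in Vps13c-cKO and 185 to 208 CPM (median 199.8) in WT, and the log2 fold change was -0.23 ± 0.04 (SE; adjusted p = 0.00122). The knockout with the highest value lay just above the lowest WT mouse. Gnao1, which encodes the G protein alpha subunit Go, rose, at 29.8 ± 3.01 CPM in Vps13c-cKO and 23.6 ± 1.81 CPM in WT (SD, n = 6 each; log2 fold change 0.34 ± 0.07 SE, adjusted p = 0.00219). These were the 2 of 11 tested genes for receptors, G proteins and their regulators that passed the threshold by edgeR, and the median log2 fold change of the 11 was -0.005. DESeq2 called 3 of the 11, and 6 had an unadjusted p under 0.05 by edgeR, so smaller changes in other genes of the list are not excluded.

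Of the strong inward rectifier subunits, Kcnj2 fell and Kcnj12 did not pass the threshold. Kcnj2 (Kir2.1; ENSMUSG00000041695, chromosome 11) had a lowest, median and highest value of 40.4, 50.45 and 53.8 CPM in Vps13c-cKO, against 50.85, 74.75 and 82.75 CPM in WT. The groups overlapped through WT mouse 1 alone, whose 50.85 CPM lay among the knockouts, while the other 5 WT mice were at 68.2 CPM or more. The log2 fold change was -0.54 ± 0.09 (SE, adjusted p = 0.000262), and the knockout mean was 69.0% of the WT mean. Without WT mouse 1 the log2 fold change was -0.62, and without Vps13c-cKO mouse 4, the lowest of the knockouts, it was -0.49. Kcnj12 (Kir2.2; ENSMUSG00000042529, chromosome 11) spanned 15.95 to 21.8 CPM in Vps13c-cKO with a median of 20.9 CPM, and 20.8 to 23.9 CPM in WT with a median of 21.55 CPM. The ranges overlapped in 4 knockouts, and its log2 fold change was -0.14 ± 0.07 (SE, adjusted p = 0.243), or -0.08 without Vps13c-cKO mouse 3.

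The difference between Kcnj2 and Kcnj12 turned on single mice. The read ratio of Kcnj2 to Kcnj12 had a median of 2.42 (1.93 to 3.20) in Vps13c-cKO and 3.49 (2.13 to 3.64) in WT. The log2 difference was -0.38 ± 0.16 (SE; exact permutation p = 0.0433, adjusted p = 0.0563 over 6 ratios), so it did not pass. Without WT mouse 1 the difference was -0.495 (exact permutation test, adjusted p = 0.00866), and without Vps13c-cKO mouse 3 it was -0.45 (exact permutation test, adjusted p = 0.0476).

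The KATP pore gene Kcnj11 (Kir6.2; ENSMUSG00000096146, chromosome 7) fell by a small amount. Its lowest, median and highest values were 102.5, 109 and 118 CPM in Vps13c-cKO, against 116, 126 and 132 CPM in WT. Of the knockouts 5 lay below all WT mice and the remaining one just above the lowest. The log2 fold change was -0.20 ± 0.04 (SE, adjusted p = 0.00293), or 87.1% of the WT mean. Among the 955 tested genes of chromosome 7, where Kcnj11 lies, 18.5% were called in either direction, against 10.1% of those on other chromosomes; the part of this position in the value of Kcnj11 was not tested.

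The regulatory subunits of KATP channels did not pass the threshold. Abcc9 (SUR2), the partner of Kcnj11 in ventricle, measured 483.5 ± 13.5 CPM in Vps13c-cKO and 515.5 ± 30.6 CPM in WT (SD, n = 6 each; log2 fold change -0.09 ± 0.04 SE, adjusted p = 0.131). Abcc8 (SUR1), the gene next to Kcnj11 on chromosome 7, measured 36.0 ± 1.59 CPM in Vps13c-cKO and 35.6 ± 0.793 CPM in WT (log2 fold change 0.02 ± 0.04 SE, adjusted p = 0.881). Kcnj8 (Kir6.1), the KATP pore of vascular muscle and pericytes, measured 29.2 ± 1.95 CPM in Vps13c-cKO and 33.4 ± 3.69 CPM in WT (log2 fold change -0.19 ± 0.07 SE, adjusted p = 0.0700). Smooth muscle and pericyte markers had 1 of 7 tested genes higher and 2 lower, with summed levels of 1053 to 1124 CPM in Vps13c-cKO and 1117 to 1343 CPM in WT. The part of these cells in the values of Kcnj8 and Abcc9 was not tested. The call of Kcnj8 turned to lower without WT mouse 1 (adjusted p = 0.0420) and without WT mouse 6 (adjusted p = 0.0190). The read ratio of Kcnj11 to Abcc9 was 0.226 in Vps13c-cKO and 0.242 in WT at the median, a log2 difference of -0.11 ± 0.05 (SE; exact permutation p = 0.0476, adjusted p = 0.0563). Without Vps13c-cKO mouse 1 the difference was -0.133 (exact permutation test, adjusted p = 0.0476).

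In the transient outward current, the main pore gene fell while its accessory subunit did not pass the threshold. Kcnd2 (Kv4.2; ENSMUSG00000060882, chromosome 6) had a lowest, median and highest value of 31.6, 34.3 and 36.2 CPM in Vps13c-cKO, against 42.3, 48.8 and 54.4 CPM in WT. The groups were well separated, with a gap wider than the whole range of the knockouts. The log2 fold change was -0.50 ± 0.06 (SE, adjusted p = 2.95e-06), or 70.5% of the WT mean. Kcnd3 (Kv4.3; ENSMUSG00000040896, chromosome 3) spanned 14.8 to 23.2 CPM in Vps13c-cKO with a median of 19.6 CPM, and 20.9 to 25.6 CPM in WT with a median of 23.2 CPM. Of the knockouts 4 lay below all WT mice, and the log2 fold change was -0.24 ± 0.08 (SE, adjusted p = 0.0751). Without Vps13c-cKO mouse 6, which had the highest Kcnd3 of the knockouts, it was -0.30 (adjusted p = 0.0212). Exons of Kcnd3 overlap the antisense gene Kcnd3os over 165 of 9587 bases.

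Kcnip2 (KChIP2; ENSMUSG00000025221, chromosome 19) had a lowest, median and highest value of 157, 169 and 179 CPM in Vps13c-cKO, against 146, 159.6 and 185 CPM in WT. The knockouts all lay within the WT range. The log2 fold change was 0.06 ± 0.05 (SE, adjusted p = 0.515), and it was 0.03 without WT mouse 1, 0.04 without WT mouse 6 and 0.10 without WT mouse 2. The ratio of Kcnip2 to Kcnd2 reads was higher in every knockout than in any WT mouse, with a median of 4.86 (4.60 to 5.68) in Vps13c-cKO and 3.32 (3.02 to 3.79) in WT. The log2 difference was 0.565 ± 0.07 (SE; exact permutation p = 0.00216, adjusted p = 0.00649).

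The ratios that involve Kcnd3 changed call with single mice. For Kcnip2 to Kcnd3 the median was 8.86 in Vps13c-cKO and 7.09 in WT, a log2 difference of 0.31 ± 0.12 (SE; exact permutation p = 0.0216, adjusted p = 0.0433). That call was lost without any one of Vps13c-cKO mice 1, 2, 3 and 5 and WT mice 1, 3, 4 and 6, with exact permutation adjusted p-values of 0.0519 to 0.0714. For Kcnd2 to Kcnd3 the median was 1.71 in Vps13c-cKO and 2.13 in WT. Its log2 difference of -0.25 ± 0.11 (SE; exact permutation p = 0.0563, adjusted p = 0.0563) did not pass. Vps13c-cKO mouse 2 had a ratio of 2.44, above all WT mice, and the other 5 knockouts lay below all WT mice. Without that mouse the difference was -0.34 (exact permutation test, adjusted p = 0.00433).

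**Figure D2:**
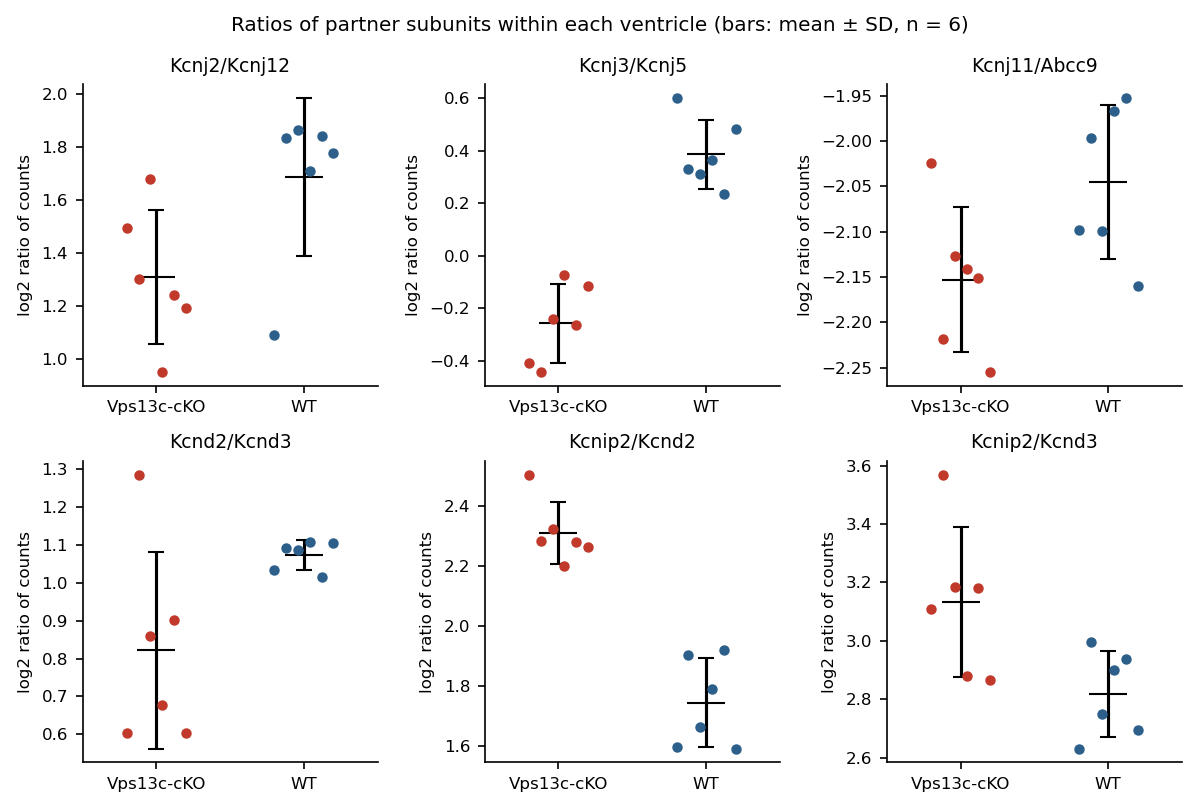
Log2 ratio of read counts of 2 partner subunits (y axis; scale differs between panels and does not start at 0) in 6 Vps13c-cKO (red, left) and 6 WT (blue, right) ventricles, with mean ± SD as bars. The groups are apart for Kcnj3/Kcnj5 and Kcnip2/Kcnd2 and overlap for the other 4 ratios.

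The delayed rectifier gene Kcna5 (Kv1.5; ENSMUSG00000045534, chromosome 6) spread more widely in WT than in knockout ventricles. It had a lowest, median and highest value of 27.0, 31.5 and 34.0 CPM in Vps13c-cKO, against 18.65, 28.3 and 36.8 CPM in WT. The knockouts all lay within the WT range. The log2 fold change was 0.14 ± 0.10 (SE, adjusted p = 0.462), and it was 0.04 without WT mouse 5 and 0.23 without WT mouse 1. Of 2 further genes of delayed rectifiers, chosen by role after their values were seen, 0 were called by edgeR or DESeq2 and 1 (Kcnq1) had an unadjusted p under 0.05. Kcnq1 and Kcnh2, the pores of IKs and IKr, had log2 fold changes of -0.12 ± 0.06 and -0.03 ± 0.07 (SE), with adjusted p = 0.201 and 0.859.

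Levels can be set side by side between genes only per length, here CPM per kb of annotated exon. This length pools all annotated exons of a gene, and the length of the transcripts used in these ventricles was not measured. The order of genes at close levels depends on that choice. In Vps13c-cKO ventricles Kcnip2 was highest at 48.7 ± 2.30, followed by Kcnj11 at 29.6 ± 1.41, Kcnj5 at 17.3 ± 1.36 and Kcnj3 at 13.1 ± 1.52 CPM per kb (SD, n = 6). Kcna5 at 10.8 ± 0.828, Kcnj2 at 9.07 ± 0.852, Kcnj12 at 7.25 ± 0.850 and Kcnd2 at 6.62 ± 0.323 CPM per kb came next, and Kcnd3 was lowest at 2.03 ± 0.308. In WT ventricles Kcnip2 was at 46.7 ± 4.10, Kcnj11 at 33.9 ± 1.71, Kcnj3 at 20.4 ± 0.930 and Kcnj5 at 17.4 ± 1.53 CPM per kb (SD, n = 6). Kcnj2 at 13.2 ± 2.08, Kcna5 at 9.83 ± 2.07, Kcnd2 at 9.40 ± 0.796 and Kcnj12 at 7.99 ± 0.447 CPM per kb followed in WT, with Kcnd3 again lowest at 2.40 ± 0.178. Kcnip2, Kcnj11 and Kcnd3 were apart from their neighbours in both groups. All other neighbours had overlapping ranges over the 6 mice of a group. Within single mice Kcnj3 and Kcnj5 were nonetheless always in the same order, with a per-kb ratio of Kcnj3 to Kcnj5 of 0.661 to 0.854 in the 6 knockouts and 1.06 to 1.36 in the 6 WT mice. By the annotated exon lengths, Kcnj3 per kb was thus below Kcnj5 in 6 of 6 knockouts and above it in 6 of 6 WT mice. By the same lengths, Kcnj2 was below Kcna5 in 6 of 6 knockouts and above it in 5 of 6 WT mice. Kcnd2 was below Kcnj12 in 5 of 6 knockouts and above it in 5 of 6 WT mice.

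**Figure D3:**
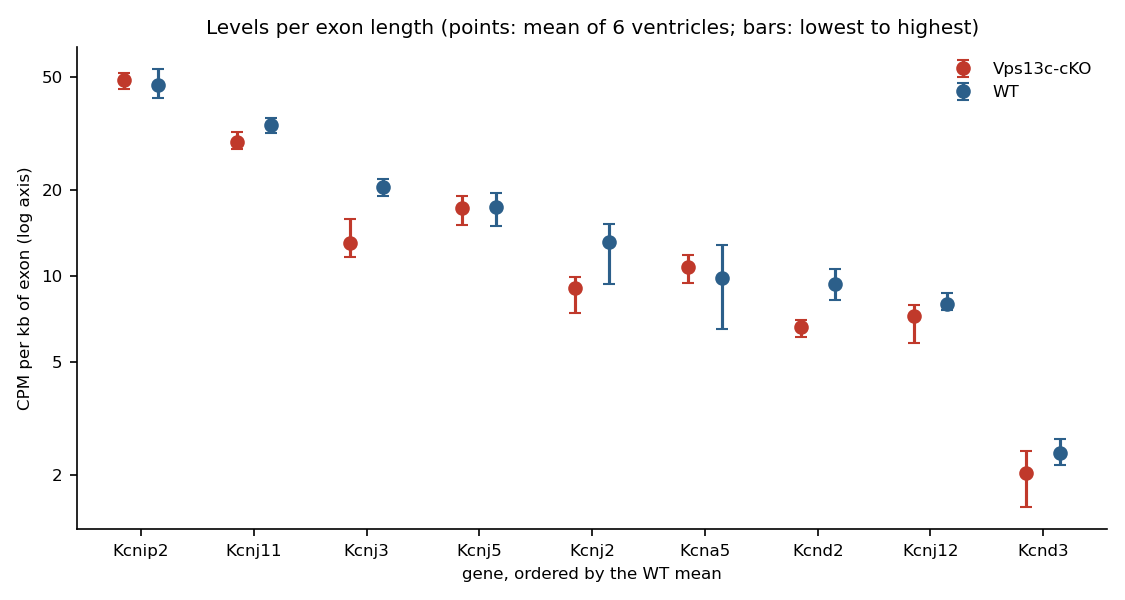
Mean level of the 9 genes in CPM per kb of exon (y axis, log scale), ordered by the WT mean, in Vps13c-cKO (red, left of each pair) and WT (blue), with bars from the lowest to the highest of 6 mice. Kcnip2 is highest and Kcnd3 lowest in both groups, and Kcnj3 changes place with Kcnj5 between them.

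Beyond the 9, 72 symbols of potassium channel genes and associated genes were listed, and 71 had an ID in the table. Kcne5 had none, but it is the same gene as Kcne1l, which was listed too. Of the 71, 35 were expressed well enough to be tested, with 2 higher and 1 lower (median log2 fold change 0.04). These 3 calls in 35 genes are near the 10.7% called among all tested genes. Kcnv2, which encodes a silent subunit that modifies other Kv channels, fell, with 14.2 ± 2.03 CPM in Vps13c-cKO and 19.4 ± 2.60 CPM in WT (SD, n = 6 each; log2 fold change -0.45 ± 0.10 SE, adjusted p = 0.00343). The 2 that rose had low levels and both lie on chromosome 7. Kcnc1 (Kv3.1) measured 1.42 ± 0.470 CPM in Vps13c-cKO and 0.526 ± 0.281 CPM in WT, and Kcnj14 (Kir2.4) 2.20 ± 0.489 CPM in Vps13c-cKO and 0.943 ± 0.314 CPM in WT (SD, n = 6 each; log2 fold changes 1.43 ± 0.33 and 1.23 ± 0.23 SE, adjusted p = 0.00681 and 0.00116). By family, 2 of 14 tested Kv genes and 1 of 5 tested inward rectifier and KATP genes were called. The two-pore list (with Tmem175), the calcium- or sodium-activated list and the accessory list (with Pias3) had 16 tested genes. Of these, 0 were called by edgeR and 0 by DESeq2, while 2 had an unadjusted p under 0.05.

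**Figure D4:**
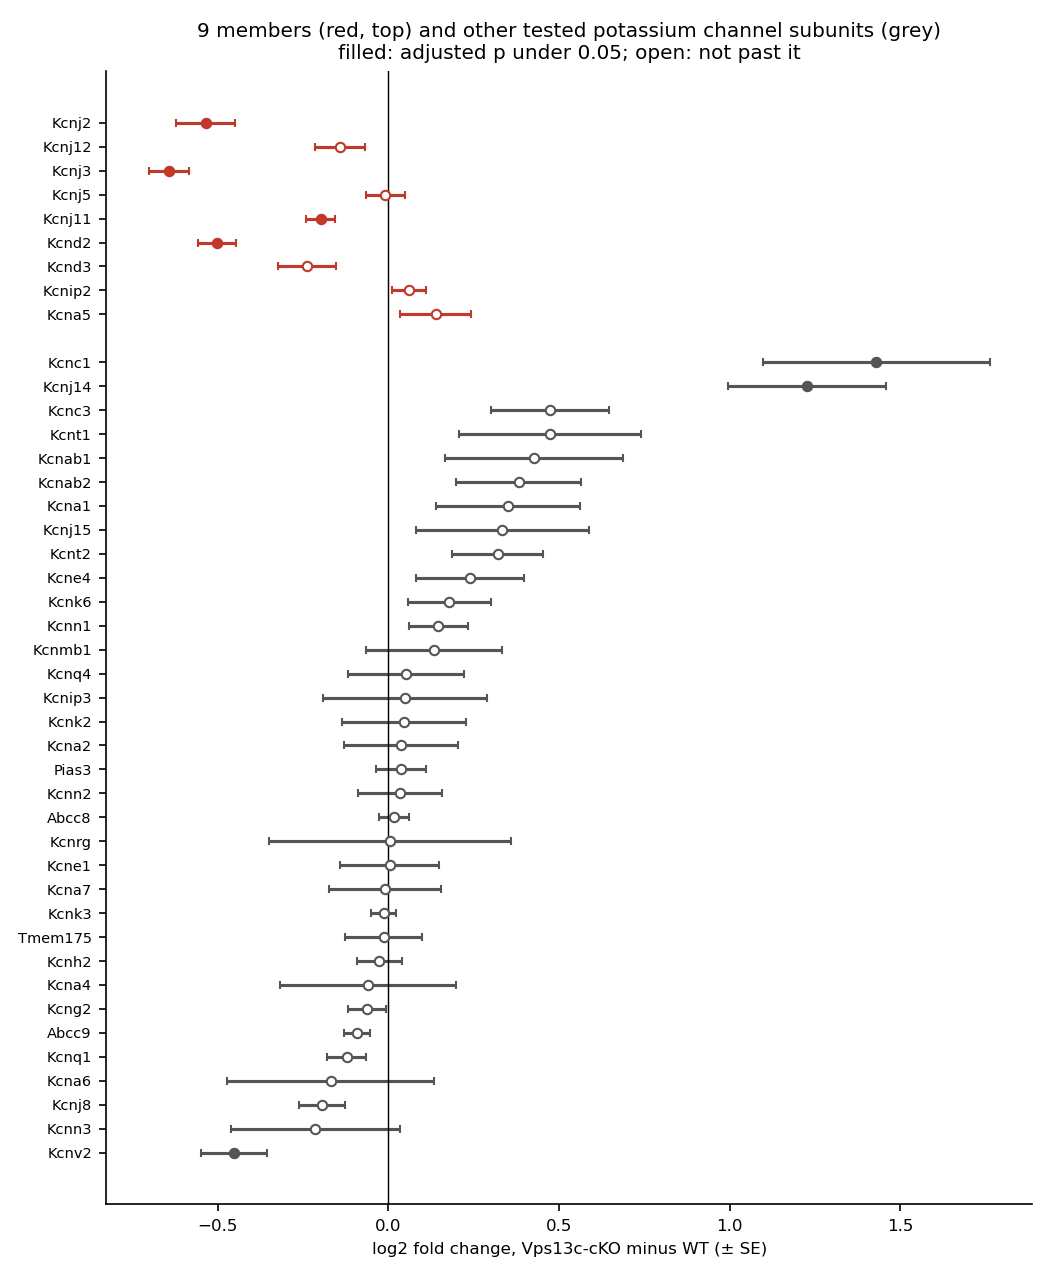
Log2 fold change of Vps13c-cKO over WT (x axis, ± SE) for the 9 subunits (red, top) and 34 of the 35 other tested potassium channel genes (grey), filled where the adjusted p is under 0.05. The 4 filled red points are all below 0, and the filled grey points are Kcnc1 and Kcnj14 above 0 and Kcnv2 below it.

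Scaffolds and transcriptional regulators linked to these channels were examined next. Of 12 tested scaffolds and anchors, Magi3, a membrane scaffold with PDZ domains, was the 1 called, and it rose, with 67.5 ± 7.78 CPM in Vps13c-cKO and 49.5 ± 5.22 CPM in WT (SD, n = 6 each; log2 fold change 0.45 ± 0.07 SE, adjusted p = 0.000285). Of 14 tested regulators, 4 were lower and 0 higher, with a median log2 fold change of -0.11. Among all 12384 tested genes 5.10% were called lower and 5.65% higher. The list of regulators was also chosen with earlier results of these data known, so its count is a description. Arntl measured 6.53 ± 0.942 CPM in Vps13c-cKO and 11.7 ± 4.14 CPM in WT (SD, n = 6 each). The time of day of collection is not stated by the labels. The 4 were the clock genes Arntl (BMAL1), Clock and Nr1d1 and the repressor gene Hey2, with log2 fold changes of -0.84 ± 0.18, -0.25 ± 0.05, -0.29 ± 0.08 and -0.46 ± 0.12 (SE) and adjusted p = 0.00343, 0.00264, 0.0158 and 0.0145. Whether the clock genes Arntl, Clock and Nr1d1 changed independently of each other was not tested, so the 4 calls cannot be counted as separate responses. Exons of Nr1d1 overlap Thra on the opposite strand over 263 of 3077 bases, so the value of Nr1d1 is uncertain to that extent. Klf15, an activator of Kcnip2 in mouse heart, and Irx5, a repressor of Kcnd2 in mouse ventricle, did not pass, with log2 fold changes of -0.11 ± 0.10 and 0.13 ± 0.10 (SE; adjusted p = 0.567 and 0.476).

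For each called subunit, the 2 genes most like it from mouse to mouse were found by Pearson correlation of log2 CPM over 12 mice after the group means were taken out, among 7914 genes of at least 10 CPM. They were Wdr6 (r = 0.936) and Ndufa5 (0.907) for Kcnj2, Slc11a2 (0.883) and Inafm2 (0.873) for Kcnj3, Rsrc1 (0.881) and Smarcc2 (0.866) for Kcnj11, and Tacc1 (0.862) and Med13l (0.845) for Kcnd2. As the highest of 7914 values over 12 points, these are a description. None of the 8 was itself called by edgeR, with adjusted p-values of 0.106 to 0.942.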

How the data were processed

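RNA of 12 ventricles was sequenced, and the authors deposited 1 table of raw read counts per gene. Per the submitters' processing notes, fastp 0.22.0, HISAT2 2.1.0 and HTSeq 0.9.1 were used with build GRCm39; the strand setting of the counting is not given there. Gene symbols, exon lengths and exon overlaps came from GENCODE M21 (GRCm38), which named 21851 of 21959 IDs, and no GRCm38 coordinate was applied to the counts.

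From the deposited counts, genes were kept with filterByExpr, scaled with TMM and tested with edgeR 4.0.16 (quasi-likelihood, R 4.3.3) between the 2 groups with no covariate. A gene was called at a Benjamini-Hochberg adjusted p under 0.05 over all 12384 genes, and adjusted p-values without another tool named are from this fit. Simulated counts with known changes were run through the same fit first. Library totals of 12484523 to 15562942 counts set the precision of low genes. Count ratios within a mouse used a pseudocount of 0.5 and two-sided exact permutation tests over mice, adjusted over 6 ratios. No 2 libraries of the same group agreed within sampling noise. The labels do not say how the 12 mice relate by litter, and p-values measure the spread between these samples.

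One listed gene is counted but not reported here. The 9 members and the gene lists were chosen with earlier results of these data known. Named genes were the members, Abcc9, Abcc8, Kcnj8 and Vps13c, at most 4 called genes of each list by smallest p, and for each called member the 2 genes most like it. Marker genes of cell types were named as well, and Kcnq1, Kcnh2, Klf15 and Irx5 were picked by role. Alternatives were DESeq2 1.42.0, limma-voom (limma 3.58.1), sva 3.50.0, other scaling and filters, a replicate block and each mouse left out.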

Additional observations from a re-analysis of the deposited data

Results flagged for a closer look

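Dixon's test at the 95% level marked 3 values among 38 groups of 6 mice, and chance alone marks about 1 in 20 groups. Kcnj2 measured 40.4 CPM in Vps13c-cKO mouse 4, where the other 5 knockouts spanned 49.6 to 53.8 CPM. The Kcnj2 to Kcnj12 read ratio was 2.13 in WT mouse 1, below the other 5 WT mice. Abcc8 measured 37.2 CPM in WT mouse 5, where the other 5 WT mice lay between 35.1 and 35.6 CPM.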

How the results depend on the processing

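Of 420 recomputed values for 22 results, 399 were counted as unchanged. For log2 fold changes and ratio differences this means the same direction and the same side of the threshold. For counts of called genes, which have neither, it means within 1.5 times the main count, and all of these counts were. The count of changed genes was 1065 to 1482 over 21 alternatives, against 1331. Leaving out 1 mouse at a time, the log2 fold change ranged over -0.049 to 0.027 for Kcnj5, -0.300 to -0.172 for Kcnd3 and -0.004 to 0.030 for Abcc8, so the direction of Kcnj5 and Abcc8 was not fixed; Kcnj5 was also at 0.006 with 1 surrogate variable. The uncalled values also moved by over 1.5 times for Kcnj12 (-0.171 to -0.084), Kcnip2 (0.032 to 0.101) and Kcna5 (0.040 to 0.229). Log2 ratio differences ranged over -0.495 to -0.304 for Kcnj2/Kcnj12, -0.133 to -0.087 for Kcnj11/Abcc9, -0.343 to -0.207 for Kcnd2/Kcnd3 and 0.227 to 0.367 for Kcnip2/Kcnd3. The cause of these changes was not tested. The labels do not say whether replicate numbers pair the mice. Same-numbered mice correlated at -0.0396 to 0.0618 over genes, and only mouse 6 correlated best with its own number. Such low correlations do not show pairing and cannot exclude it. With the replicate block 1312 genes were called. In that block the ratio differences were -0.644 for Kcnj3/Kcnj5, 0.565 for Kcnip2/Kcnd2 and 0.314 for Kcnip2/Kcnd3. A sign-flip test over the 6 same-numbered pairs gave each an adjusted p = 0.0938 over the 6 ratios. The smallest p that 6 pairs can give is too large for a few ratios alone to pass after this adjustment. No conclusion is drawn from the loss of these calls. Kcnj8 was called with the block (adjusted p = 0.0415) and with 1 surrogate variable (adjusted p = 0.0486). Low counts limit the precision of Kcnc1 and Kcnj14.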

Other observations

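Arntl and Kcnj2 were set side by side mouse by mouse, a pair picked after the values were seen. In Vps13c-cKO mice 1 to 6 Arntl measured 5.80, 6.90, 8.12, 6.81, 5.74 and 5.79 CPM, beside Kcnj2 at 51.6, 53.8, 51.1, 40.4, 49.6 and 49.8 CPM. In WT mice 1 to 6 Arntl measured 17.05, 7.14, 8.98, 16.3, 8.98 and 12.0 CPM, beside Kcnj2 at 50.85, 78.3, 77.2, 68.2, 82.75 and 72.3 CPM. The 3 WT mice with the highest Arntl had the 3 lowest Kcnj2 levels of the group. The knockouts did not show this inverse order, and between the groups both genes were lower in Vps13c-cKO. No test was made on this pair.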
